A study of Saccharomyces cerevisiae with 12 samples.

Results

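The 10 genes described here encode the peroxisomal fatty acid oxidation machinery of budding yeast (Saccharomyces cerevisiae): POX1 (YGL205W), FOX2 (YKR009C), POT1 (YIL160C), FAA2 (YER015W), PXA1 (YPL147W), PXA2 (YKL188C), ECI1 (YLR284C), DCI1 (YOR180C), SPS19 (YNL202W) and CTA1 (YDR256C). They were chosen by name for their known roles, with earlier results of these data known, and are 10 of the 7127 features in a table of RNA sequencing read counts. Each had at least 35 counts in every library, so all 10 passed the filter on low counts. The table holds 12 libraries in 4 groups of 3 biological replicates: WT in glucose, Rpd3_2SA in glucose, WT in sucrose and Rpd3_2SA in sucrose. Glucose cultures were in YPD, a rich medium, and all cultures were harvested in the middle of exponential growth. The other components of the sucrose medium, the amino acid changes named 2SA, and the number of clones behind the mutant are not given in the labels. RPD3 encodes a histone deacetylase that acts with Sin3 as a repressor of many genes, and the series title names its phosphorylation as the question.

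All groups are labelled BY4741, a strain derived from S288C that as background is of mating type a and lacks LEU2, MET17 and URA3 and carries HIS3 as a partial deletion. HIS3 was at 29.8 to 69.1 CPM, a CPM being a count scaled to a common library size with the trimmed mean of M values, and counts per gene do not show whether part of it is missing. LEU2 had 1 count and MET17 had 0 counts over all 12 libraries. URA3 went against the strain label, at 233 to 521 CPM in every library. How URA3 came to be present is not given in the labels. The alpha-factor gene MF(ALPHA)1 stayed at or below 0.297 CPM while the a-factor genes MFA1 and MFA2 were present throughout. MF(ALPHA)2, the other alpha-factor gene, had enough counts to pass the filter on low counts, so it went against the label of mating type a. The RPD3 transcript differed between Rpd3_2SA (2SA from here on) and WT by a log2 fold change of 0.02 ± 0.18 (SE) in glucose and -0.02 ± 0.18 in sucrose. Counts per gene do not show whether the 2SA allele was present. Libraries held 20775911 to 25360037 counts.

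In yeast, fatty acids are broken down by beta-oxidation in peroxisomes alone. Long-chain acyl-CoA enters through the Pxa1-Pxa2 transporter, medium-chain fatty acids are activated inside by Faa2, and the acyl-CoA oxidase Pox1, the multifunctional enzyme Fox2 and the thiolase Pot1 then carry out each round of shortening. Pox1 passes electrons to oxygen and makes hydrogen peroxide, which the peroxisomal catalase Cta1 removes. Eci1 and Sps19 handle unsaturated chains, as an enoyl-CoA isomerase and a dienoyl-CoA reductase, and Dci1 is a relative of Eci1. These genes are known to be held low in glucose, released when glucose is exhausted, and induced strongly when oleate is the carbon source. The activators Oaf1 and Pip2 bind an oleate response element upstream of them, Adr1 binds a separate element, and the kinase Snf1 acts upstream of Adr1.

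The upstream regions are shown because the 10 genes all had higher means in sucrose and because these elements are what the group is known to share. An oleate response element was searched for as CGG, any 3 bases, T, any base, A, any 8 to 12 bases and CCG, on either strand, within 600 bases upstream of the start codon. It was found upstream of 9 of the 10 genes, PXA1 being without these letters in that window, and upstream of 156 of 5986 protein-coding genes in all (2.606%). Within 250 bases upstream and 50 bases downstream of the start codon it was found for 6 of the 10 genes and for 60 of 5988 genes (1.002%). This motif was itself defined partly on genes of this family, so its presence is a description of the group and not a result. The matches follow with 5 flanking bases on each side, in the gene's own direction, from the RefSeq R64 genome, whose coordinates match those of the sacCer3 table for all 10 genes. Capitals mark the matched letters.
POX1 distal element (chrVII:107841-107873, plus strand): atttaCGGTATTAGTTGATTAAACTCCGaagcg
POX1 proximal element (chrVII:107878-107910, plus strand): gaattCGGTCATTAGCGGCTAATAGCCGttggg
FOX2 distal element (chrXI:457332-457363, minus strand): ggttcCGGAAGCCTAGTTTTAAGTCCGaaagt
FOX2 proximal element (chrXI:457300-457330, minus strand): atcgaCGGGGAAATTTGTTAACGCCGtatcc
POT1 element (chrIX:41605-41637, minus strand): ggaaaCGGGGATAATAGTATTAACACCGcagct
FAA2 element (chrV:184350-184382, plus strand): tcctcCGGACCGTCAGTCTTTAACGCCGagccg
PXA2 element (chrXI:89030-89063, minus strand): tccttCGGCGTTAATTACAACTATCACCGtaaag
ECI1 element (chrXII:707186-707218, minus strand): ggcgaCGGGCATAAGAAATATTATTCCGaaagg
DCI1 element (chrXV:675281-675314, minus strand): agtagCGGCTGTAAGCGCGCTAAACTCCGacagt
SPS19 element (chrXIV:259407-259440, plus strand): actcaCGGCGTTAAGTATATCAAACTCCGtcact
CTA1 element (chrIV:969861-969894, minus strand): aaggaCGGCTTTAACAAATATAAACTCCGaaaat
The matches were 21 to 24 bases long. POX1 and FOX2 each held a pair of them, and the other 7 genes held a single one.

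Another 4 motifs were searched for on both strands in the same 600 bases. The Adr1 core, TTGGAG or TTGGGG, was found for 9 of the 10 genes, all but PXA2, and for 32.108% of all genes. GCCGCC, the core of the site bound by Ume6, which recruits Rpd3 and Sin3, was found for FAA2 and PXA2 and for 11.36% of all genes. The Mig1 core GCGGGG was found for none of the 10 genes and for 6.799% of all genes. The stress element core CCCCT was found for POX1, ECI1 and SPS19 and for 39.693% of all genes. At POX1 the proximal oleate element and an Adr1 core adjoin, and at FAA2 the oleate element and the Ume6 core lie next to each other. A match is a run of letters and does not show that a factor binds there. A stretch is shown for POT1, which had the largest sucrose response, and for SPS19, whose response differed in its order between libraries, with the oleate element and the Adr1 cores in capitals.
POT1 upstream region (chrIX:41545-41694, minus strand): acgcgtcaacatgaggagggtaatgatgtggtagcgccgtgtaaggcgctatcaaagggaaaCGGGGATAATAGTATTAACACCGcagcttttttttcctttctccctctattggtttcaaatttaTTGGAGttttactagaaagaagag
SPS19 upstream region (chrXIV:259328-259487, plus strand): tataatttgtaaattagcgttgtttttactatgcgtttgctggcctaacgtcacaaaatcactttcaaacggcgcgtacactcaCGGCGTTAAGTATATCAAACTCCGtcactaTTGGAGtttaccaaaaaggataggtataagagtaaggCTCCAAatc
POT1 held a single Adr1 core downstream of its oleate element. SPS19 held 2 of them, in opposite orientations.

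**Figure D1:**
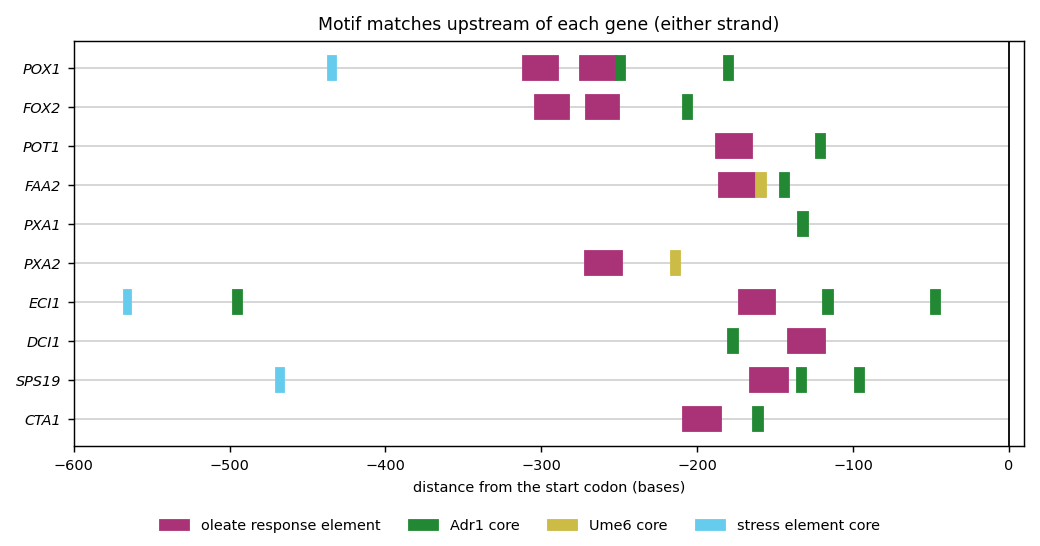
Positions of the motif matches upstream of each of the 10 genes. The x axis is the distance from the start codon in bases, each row is a gene, and boxes are drawn to the length of the match. Boxes mark oleate response elements, Adr1 cores, Ume6 cores and stress element cores. Oleate response elements stand upstream of 9 genes and Adr1 cores upstream of 9 genes. Mig1 cores, found by the search for none of the 10 genes, were not drawn.

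Sucrose against glucose was the comparison in which these genes differed. In both genotypes all 10 had a higher mean in sucrose, from 1.73-fold for PXA2 to 27.2-fold for POT1 in WT and from 1.44-fold for PXA2 to 27.2-fold for POT1 in 2SA. In WT, 3 genes passed the test, POX1, POT1 and ECI1, and in 2SA 2 genes passed, POT1 and ECI1, all of them higher. A gene passed where edgeR's quasi-likelihood test gave a Benjamini-Hochberg adjusted p under 0.05 and the fold change was over 1.5. The share of all 6085 tested features that passed in the higher direction was 2.91% in WT and 1.61% in 2SA. The median log2 fold change of the 10 genes was 1.50 in WT and 1.52 in 2SA, against 0.04 and 0.02 for all features. The groups of 3 libraries did not overlap for 9 of the 10 genes in WT and for 8 in 2SA, where 14.2% of all features stood apart in that direction in each genotype. CPM values are relative to the whole library, so more transcript per cell and more cells with the transcript cannot be told apart.

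The 3 calls in WT and the 2 in 2SA depended on which libraries entered the fit. With the libraries numbered 2 left out of all 4 groups, none of the 10 genes and none of 6092 features (0%) passed edgeR's test in either genotype, although 875 features in WT and 680 in 2SA had an unadjusted p under 0.05, 6 and 5 of the 10 genes among them. With 1 library left out at a time, no gene passed in WT where that was a WT glucose library, POT1 alone passed without WT sucrose library 1, and 6 genes passed without WT sucrose library 3. Of all features, 64 of 6105, 10 of 6113 and 20 of 6113 passed as higher without WT glucose library 1, 2 or 3. Without WT sucrose library 1 it was 57 of 6103, and without library 3 it was 256 of 6117. In 2SA no gene passed where the library left out was from 2SA glucose or was 2SA sucrose library 1 or 2, and POT1 alone passed without any 1 of the WT glucose libraries. Of all features, 9 of 6117, 2 of 6118 and 3 of 6115 passed as higher without 2SA glucose library 1, 2 or 3. Without 2SA sucrose library 1 or 2 it was 4 of 6118 and 10 of 6112. Without WT glucose library 1, 2 or 3 it was 73 of 6105, 37 of 6113 and 37 of 6113. Where so few features passed, none of the 10 genes says little about them. DESeq2 called 6 of the 10 genes in WT, adding FAA2, SPS19 and CTA1, where 5.64% of all features passed in the higher direction. In 2SA it called 7, adding POX1, FOX2, FAA2, SPS19 and CTA1, where 3.58% of all features passed. With an additive block on the library number in edgeR, 5 of the 10 genes passed in WT and 4 in 2SA, where 5.97% and 3.52% of all features passed in the higher direction.

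**Figure D2:**
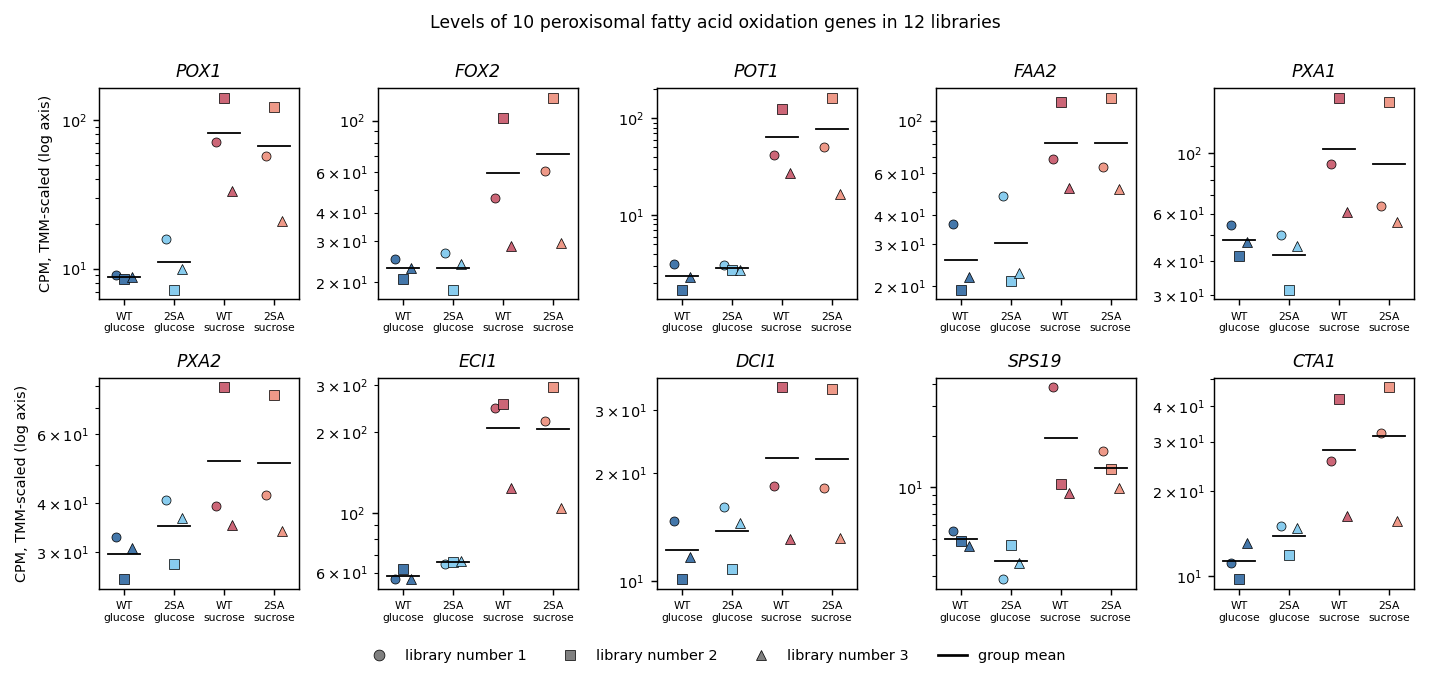
Level of each of the 10 genes in the 12 libraries, in CPM on a log axis that differs between panels. Each point is a library, its shape gives the library number, and the bar is the group mean of 3 libraries. Both sucrose groups spread widely, and the square of library 2 lies on top in every sucrose group except those of SPS19.

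The 2 largest responses were those of POT1 and POX1, both core enzymes. POX1, the oxidase of the first step, stood at 9.08, 8.56 and 8.74 CPM in WT glucose libraries 1, 2 and 3 and at 71.2, 141 and 33.4 CPM in the WT sucrose libraries. In 2SA the POX1 values were 15.9, 7.25 and 9.92 CPM in glucose and 57.1, 122 and 20.8 CPM in sucrose. Glucose and sucrose libraries of POX1 did not overlap in either genotype, and sucrose library 2 was the highest and 3 the lowest in both. Its log2 fold change was 3.22 ± 0.65 (SE) in WT, with an adjusted p of 0.0231 in edgeR, and 2.60 ± 0.63 in 2SA, with an adjusted p of 0.0631. Without the libraries numbered 2 the log2 fold change of POX1 was 2.55 in WT and 1.60 in 2SA.

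POT1, the thiolase that releases acetyl-CoA, was the lowest of the 10 genes in glucose. Its level was 3.09, 1.70 and 2.28 CPM in WT glucose and 41.6, 124 and 27.0 CPM in WT sucrose. The 2SA libraries had 3.04, 2.68 and 2.73 CPM of POT1 in glucose and 50.2, 163 and 16.5 CPM in sucrose. Every sucrose library was well above every glucose library, and among the sucrose libraries number 2 stood far above the other two. Over the WT glucose mean, POT1 was 17.6, 52.4 and 11.5 times higher in the WT sucrose libraries, and over the 2SA glucose mean it was 17.8, 57.9 and 5.87 times higher in the 2SA sucrose libraries. The log2 fold change of POT1 was 4.76 ± 0.84 in WT (edgeR adjusted p = 0.0182) and 4.76 ± 0.84 in 2SA (adjusted p = 0.0262). By size this ranked 2 of 6085 features in WT and 3 of 6085 in 2SA. It was 3.67 and 3.54 without the libraries numbered 2.

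FOX2, the multifunctional enzyme between the oxidase and the thiolase, had a smaller difference than either. Its WT libraries held 25.1, 20.7 and 22.9 CPM in glucose and 46.3, 103 and 28.6 CPM in sucrose. In 2SA, FOX2 stood at 26.7, 18.6 and 24.0 CPM in glucose and at 60.3, 126 and 29.5 CPM in sucrose. The groups did not overlap, but sucrose library 3 was close to the glucose libraries in both genotypes. FOX2 had a log2 fold change of 1.37 ± 0.51 in WT and 1.64 ± 0.52 in 2SA and did not pass the test (edgeR adjusted p = 0.14 and 0.124). Without sucrose library 2 of the same genotype it was 0.70 in WT and 0.96 in 2SA.

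Of the genes of activation and import, FAA2, PXA1 and PXA2, none passed edgeR's test in either genotype. FAA2, the peroxisomal acyl-CoA synthetase for medium chains, stood at 36.6, 19.4 and 21.8 CPM in WT glucose and at 68.8, 120 and 51.9 CPM in WT sucrose. In 2SA it stood at 47.9, 21.1 and 22.7 CPM in glucose and at 63.9, 125 and 51.6 CPM in sucrose. The FAA2 groups did not overlap, and glucose library 1 was the high one of its group in both genotypes. Its log2 fold change was 1.63 ± 0.45 in WT (edgeR adjusted p = 0.0709) and 1.39 ± 0.45 in 2SA (adjusted p = 0.133).

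PXA1 and PXA2 encode the subunits of the acyl-CoA transporter. PXA1 had 54.4, 41.8 and 47.3 CPM in WT glucose and 91.2, 160 and 60.7 CPM in WT sucrose. The 2SA values of PXA1 were 50.2, 31.5 and 45.5 CPM in glucose and 64.2, 154 and 56.0 CPM in sucrose. PXA1 groups stood apart in both genotypes, with log2 fold changes of 1.12 ± 0.42 in WT and 1.11 ± 0.42 in 2SA (edgeR adjusted p = 0.137 and 0.19).

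PXA2 had 32.8, 25.6 and 30.6 CPM in WT glucose and 39.4, 79.2 and 35.2 CPM in WT sucrose. In 2SA it had 40.8, 27.9 and 36.6 CPM in glucose and 42.0, 75.9 and 33.9 CPM in sucrose. The 2SA groups of PXA2 overlapped, and in WT they were apart by a small margin with library 2 alone far above. Its log2 fold change was 0.79 ± 0.35 in WT and 0.53 ± 0.35 in 2SA (edgeR adjusted p = 0.197 and 0.46). Without the libraries numbered 2 it was 0.23 in WT and -0.015 in 2SA.

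Among the auxiliary enzymes, ECI1 passed the test in both genotypes. ECI1, the isomerase that moves a double bond into the position Fox2 can use, stood at 56.7, 62.1 and 56.8 CPM in WT glucose and at 245, 255 and 124 CPM in WT sucrose. The 2SA libraries had 64.8, 65.8 and 66.4 CPM of ECI1 in glucose and 221, 294 and 104 CPM in sucrose. The glucose libraries were tightly grouped, and in sucrose libraries 1 and 2 were both high while library 3 was lower yet above every glucose library. The log2 fold change of ECI1 was 1.83 ± 0.35 in WT (edgeR adjusted p = 0.0213) and 1.65 ± 0.35 in 2SA (adjusted p = 0.0382). It was 1.70 and 1.31 without the libraries numbered 2.

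DCI1, the relative of ECI1, had a small difference. Its levels were 14.7, 10.1 and 11.7 CPM in WT glucose and 18.4, 34.7 and 13.1 CPM in WT sucrose. In 2SA they were 16.04, 10.8 and 14.5 CPM in glucose and 18.2, 34.2 and 13.2 CPM in sucrose. DCI1 was the 1 gene whose groups overlapped in both genotypes, with sucrose library 3 inside the glucose range. Its log2 fold change was 0.86 ± 0.40 in WT and 0.67 ± 0.40 in 2SA (edgeR adjusted p = 0.218 and 0.413).

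SPS19, the dienoyl-CoA reductase, was also named for its expression in sporulation. It stood at 5.54, 4.86 and 4.55 CPM in WT glucose and at 38.4, 10.4 and 9.29 CPM in WT sucrose. In 2SA, SPS19 had 2.89, 4.61 and 3.596 CPM in glucose and 16.3, 12.8 and 9.87 CPM in sucrose. No glucose library reached a sucrose library, and here sucrose library 1, not 2, was the highest in both genotypes. The log2 fold change of SPS19 was 1.96 ± 0.49 in WT (edgeR adjusted p = 0.0503) and 1.81 ± 0.49 in 2SA (adjusted p = 0.0874), and without the libraries numbered 2 it was 2.23 and 2.02. Without WT sucrose library 1 the WT value was 0.98, and without 2SA sucrose library 1 the 2SA value was 1.62. SPS19 overlaps the dubious reading frame YNL203C on the opposite strand by 473 bp, and YNL203C had 2 to 11 counts per library. SPS18, the divergent gene on the other side of the SPS19 upstream region, did not pass the test, at 59.3 ± 2.54 CPM (SD, n = 3) in WT glucose and 38.9 ± 10.7 CPM in WT sucrose (edgeR adjusted p = 0.186).

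CTA1, the peroxisomal catalase, stood at 11.2, 9.78 and 13.2 CPM in WT glucose and at 25.5, 42.4 and 16.4 CPM in WT sucrose. Its 2SA values were 15.04, 11.9 and 14.9 CPM in glucose and 32.1, 46.7 and 15.8 CPM in sucrose. The groups stood apart, in 2SA by a small margin between glucose library 1 and sucrose library 3. CTA1 had a log2 fold change of 1.31 ± 0.39 in WT and 1.18 ± 0.39 in 2SA and did not pass edgeR's test (adjusted p = 0.0879 and 0.143).

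**Figure D3:**
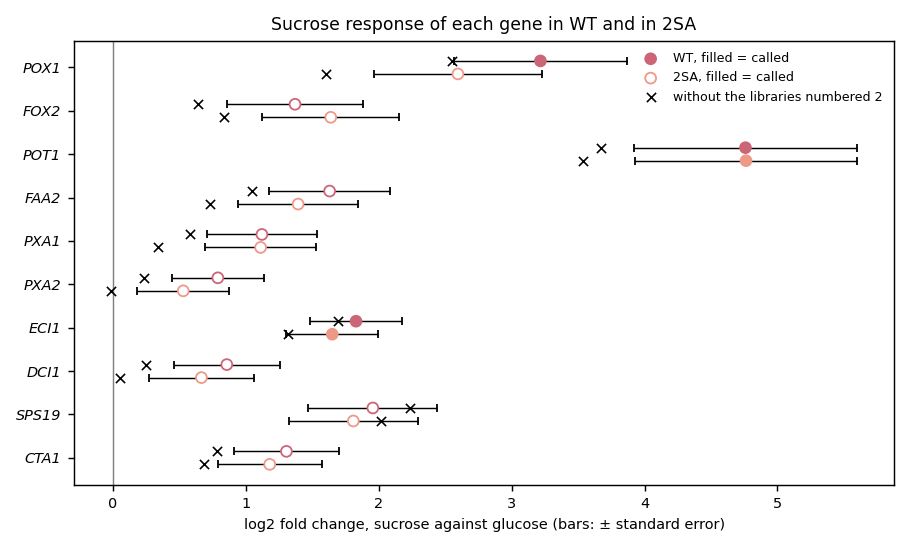
Log2 fold change of each gene in sucrose against glucose, with bars of ± 1 SE from edgeR. The upper symbol of each gene is WT and the lower is 2SA, filled where the gene passed the test, and crosses give the value without the libraries numbered 2. POT1 lies farthest to the right at 4.76 in both genotypes, and the crosses lie left of the points for 9 genes but right of them for SPS19.

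The spread between sucrose libraries was itself shared by the genes. In 18 of the 20 sets of sucrose libraries (10 genes in 2 genotypes) library 2 was the highest, 1 the middle and 3 the lowest, and both exceptions were SPS19. All 10 genes were read in the same libraries, and same-numbered WT and 2SA libraries deviated together, so these sets are not independent. The share of all features with this order was not taken. Sucrose library 2 exceeded library 3 by 2.06-fold for ECI1 to 4.57-fold for POT1 in WT, and by 2.24-fold for PXA2 to 9.85-fold for POT1 in 2SA, among the 9 genes other than SPS19. Over the 12 libraries, log2 CPM of these 9 genes correlated with a median Pearson r of 0.924 over 36 pairs of genes, the lowest being 0.781. Taken as deviations from the group means, which removes the difference between carbon sources, the median r of the same pairs was 0.908. SPS19 correlated with the others at r of 0.393 to 0.849 over libraries, and at -0.211 to 0.451 as deviations. These values describe 12 libraries that share media and depth and are not a test, and no correlations within other sets of genes were taken beside them.

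In sucrose, other measures moved with this library order. The summed level of the 10 genes was 686, 1069 and 399 CPM in WT sucrose libraries 1, 2 and 3 and 625, 1153 and 351 CPM in those of 2SA, against 202 to 283 CPM in the 6 glucose libraries. Genes of cytosolic ribosomal proteins, whose transcripts are abundant in fast growth, took 9.67%, 4.09% and 11.3% of counts in the WT sucrose libraries and 10.3%, 5.85% and 13.4% in those of 2SA. In glucose their share was 14.2% to 17.5%. A list of 13 stress genes took 0.63%, 1.92% and 0.314% of counts in WT sucrose and 0.417%, 1.09% and 0.298% in 2SA sucrose, against 0.313% to 0.762% in glucose. Library 2 thus had the lowest ribosomal and the highest stress share in both sucrose groups, and library 3 the reverse. The part of these differences in the sucrose response of the 10 genes was not tested. In sucrose library 3 of each genotype, where the ribosomal share was closest to that in glucose and the stress share was near the lowest glucose value, the 10 genes ranged from 1.07 (DCI1) to 11.5 (POT1) times their glucose mean in WT and from 0.955 (DCI1) to 5.87 (POT1) times in 2SA. There FOX2 was at 1.25 and 1.28 times, PXA1 at 1.27 and 1.32, PXA2 at 1.19 and 0.966 and CTA1 at 1.44 and 1.13, while POX1 was at 3.80 and 1.88, SPS19 at 1.86 and 2.67, FAA2 at 2.00 and 1.69 and ECI1 at 2.12 and 1.58.

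**Figure D4:**
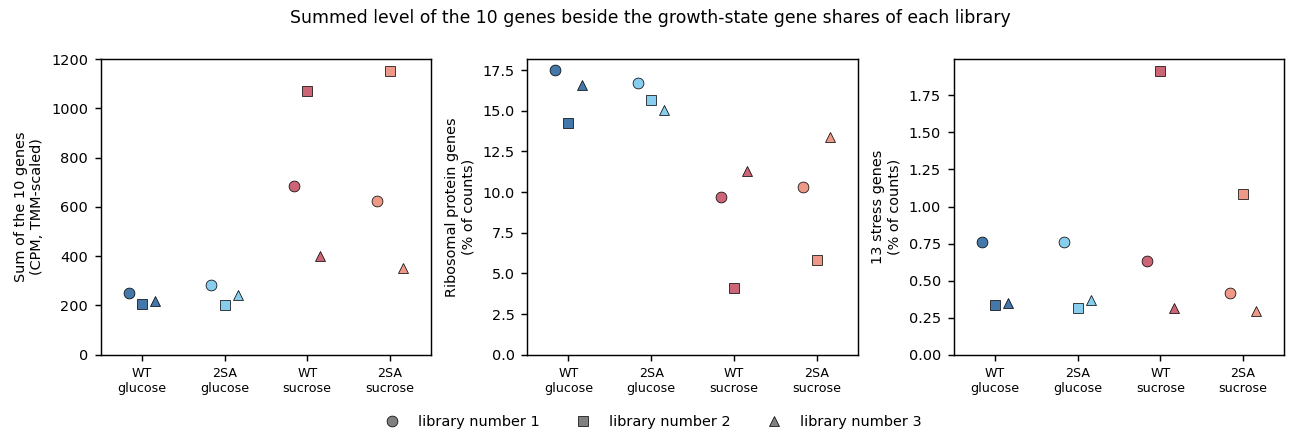
Summed level of the 10 genes in CPM (left), share of counts in ribosomal protein genes in percent (middle) and share in 13 stress genes in percent (right) for each of the 12 libraries. Points are libraries and shapes are library numbers. Sucrose library 2 has the highest sum, at 1069 and 1153 CPM, with the lowest ribosomal shares and the highest stress shares.

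The 2SA mutant was compared with WT in each carbon source, the comparison the series title points to. None of the 10 genes passed in glucose or in sucrose, where 0.0822% and 0.0657% of the 6085 features did. At an unadjusted p under 0.05 edgeR counted none of the 10 genes in either carbon source, and 171 of the 6085 features in glucose and 242 in sucrose. At such shares none of 10 genes says little about them. DESeq2, in which 0.509% and 0.756% of features passed, called none of the 10 genes. Log2 fold changes ran from -0.43 ± 0.48 (SPS19) to 0.32 ± 0.61 (POX1) in glucose and from -0.57 ± 0.46 (SPS19) to 0.28 ± 0.50 (FOX2) in sucrose. The 95% intervals were wide: for POT1 in sucrose the difference of 0.26 had an interval of -1.27 to 1.79, and for ECI1 in sucrose the difference of -0.01 had one of -0.75 to 0.73. A miss of the threshold at this width does not show that the genotypes had equal levels. ECI1 in glucose was the 1 gene whose groups stood apart, with all 2SA libraries at 64.8 CPM or above and all WT libraries at 62.1 CPM or below, where 3.6% of all features stood apart in that direction. In sucrose the groups of all 10 genes overlapped, where 2.88% of features stood apart as higher and 3.39% as lower in 2SA.

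Libraries of the same number deviated together in WT and 2SA within a carbon source, so the comparison was also fitted with each such pair of libraries as a block. The share of features that passed was then 0.477% in glucose and 1.84% in sucrose, and again none of the 10 genes was among them. The block narrowed the intervals. At an unadjusted p under 0.05 edgeR then counted 639 of the 6085 features in glucose and 1292 in sucrose. In each carbon source 2 of the 10 genes were among them. In glucose, PXA2 had a log2 fold change of 0.23 (95% interval 0.04 to 0.42, edgeR adjusted p = 0.381) and CTA1 of 0.29 (0.04 to 0.55, adjusted p = 0.401). In sucrose, POX1 had a log2 fold change of -0.39 (interval -0.76 to -0.03, adjusted p = 0.202) and FOX2 of 0.24 (0.03 to 0.46, adjusted p = 0.184). In sucrose the ratio of 2SA to WT was below 1 in all 3 pairs of libraries for POX1 (0.801, 0.865 and 0.622) and PXA1 (0.704, 0.964 and 0.923) and above 1 in all 3 for FOX2, where 20.6% of all features were below and 22.3% above in all 3 pairs. In glucose it was above 1 in all 3 pairs for 5 of the 10 genes and below for 2, against 18.4% and 15.6% of all features. For POT1, the difference in sucrose with the block was 0.02, with an interval of -0.41 to 0.45, and for PXA2 it was -0.01, with an interval of -0.20 to 0.18. SPS19 had the widest interval of the 10 genes with the block, at -0.95 to 0.33 in sucrose.

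**Figure D5:**
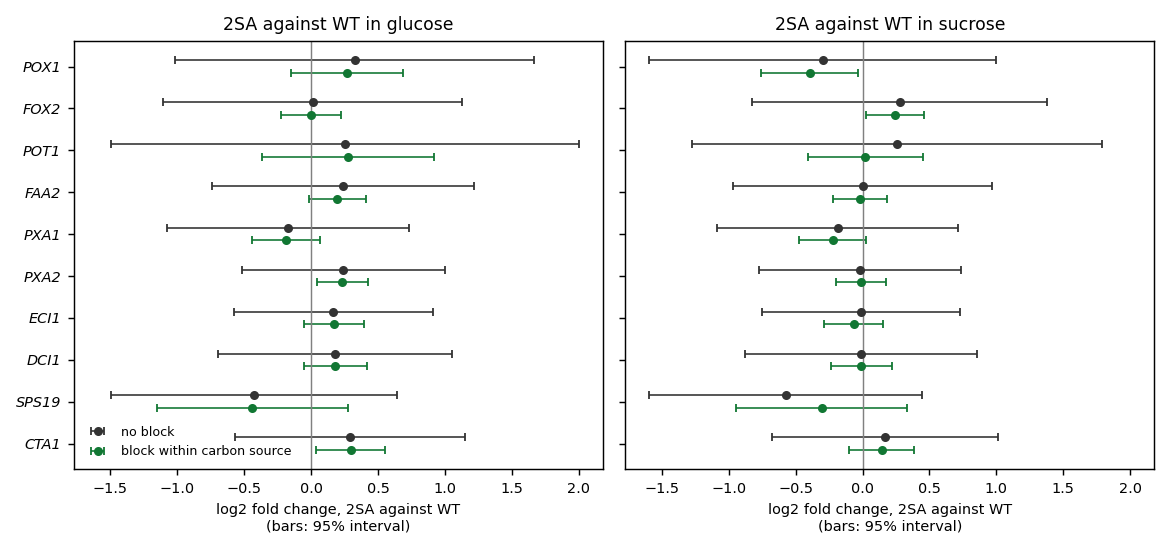
Log2 fold change of each gene in 2SA against WT, in glucose (left) and sucrose (right), with 95% intervals from edgeR. Black is the fit with no block and green the fit with the pairs of same-numbered libraries as a block. The intervals without the block include 0 for all 10 genes. Those with it exclude 0 for PXA2 and CTA1 in glucose and for POX1 and FOX2 in sucrose, none of which passed the adjusted threshold. With the block, 639 of 6085 features in glucose and 1292 in sucrose had an unadjusted edgeR p under 0.05.

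Whether the sucrose response differed between the genotypes was tested as an interaction. None of the 10 genes and none of the 6085 features passed (0%) in edgeR with or without the block, or in DESeq2, and edgeR without the block found 10 features and none of these genes at an unadjusted p under 0.05. The difference of the log2 fold changes ran from -0.62 for POX1 to 0.27 for FOX2 and was 0.00 for POT1, with a 95% interval of -2.62 to 2.63. With the block the POX1 difference was -0.66 (interval -1.22 to -0.11, edgeR adjusted p = 0.974). At an unadjusted p under 0.05 that edgeR fit counted 302 of the 6085 features, with POX1 alone among the 10 genes. The difference between the genotypes in the sucrose response of POX1 was thus tested and did not pass. That POX1 passed in WT and not in 2SA does not show such a difference. The sucrose and genotype comparisons share libraries, so their values for a gene are not independent.

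Levels between genes were compared as CPM per kilobase of gene length. In WT glucose POT1 was the lowest at 1.88 ± 0.556 (SD, n = 3) CPM per kilobase, followed by POX1 at 3.91 ± 0.119, SPS19 at 5.67 ± 0.577 and CTA1 at 7.34 ± 1.10. FOX2 at 8.47 ± 0.806, FAA2 at 11.6 ± 4.17, PXA2 at 11.6 ± 1.45, DCI1 at 14.9 ± 2.87 and PXA1 at 18.3 ± 2.41 came next, and ECI1 was the highest at 69.4 ± 3.63 CPM per kilobase. From CTA1 up to PXA1 the ranges of 1 SD around the means overlapped between neighbours, and those of SPS19 and CTA1 met at their edges, while POT1, POX1 and ECI1 stood clear of the next gene. The place of SPS19 is uncertain, since YNL203C overlaps 473 bp of its 879 bp. How reads in that stretch were counted is not given, and if they were dropped its level per kilobase is too low. In WT sucrose ECI1 was again the highest, at 247 ± 86.6 CPM per kilobase, and POT1, the lowest in every glucose library, had a mean of 51.1 ± 41.5. Among the 10 genes POT1 was rank 2 from the top in WT sucrose library 2 and rank 4 in libraries 1 and 3, and its range of 1 SD overlapped those of the 8 genes other than ECI1. The other 8 genes lay between 18.2 ± 8.54 for CTA1 and 39.8 ± 19.5 for PXA1, within each other's spread. In 2SA, POT1 went from 2.24 ± 0.155 CPM per kilobase in glucose to 61.0 ± 61.1 in sucrose, at rank 2 in libraries 1 and 2 and rank 6 in library 3.

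The genes around the pathway were counted by list. Of 31 genes for peroxisome formation, import and inheritance, PEX21 alone passed, higher in sucrose in both genotypes, a share near that of all features. DESeq2 also called INP2, which acts in peroxisome inheritance, lower in WT (log2 fold change -0.65 ± 0.18, DESeq2 adjusted p = 0.00556). The list's median log2 fold change was 0.23 in WT and 0.14 in 2SA. PEX21, which with Pex7 imports Pot1 into the peroxisome, had 20.6, 21.3 and 24.6 CPM in WT glucose and 38.6, 31.3 and 38.7 CPM in WT sucrose. Its log2 fold change was 0.71 ± 0.15 in WT (edgeR adjusted p = 0.0285) and 0.98 ± 0.15 in 2SA (adjusted p = 0.0185). PEX21 did not follow the order of the core genes, since WT sucrose library 2 was the lowest of its group.

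Of 16 genes of related peroxisomal and fatty acid metabolism, 3 were higher in WT sucrose, CAT2, IDP3 and MDH3, and CAT2 alone in 2SA, with list medians of 0.39 and 0.29. CAT2, the carnitine acetyltransferase that takes up the acetyl units made by Pot1, had 10.5, 13.4 and 14.6 CPM in WT glucose and 66.4, 135 and 42.1 CPM in WT sucrose. The log2 fold change of CAT2 was 2.66 ± 0.54 in WT (edgeR adjusted p = 0.0243) and 2.41 ± 0.53 in 2SA (adjusted p = 0.0469). IDP3, a peroxisomal isocitrate dehydrogenase that supplies NADPH to Sps19, had a log2 fold change of 0.95 ± 0.21 in WT (adjusted p = 0.0352). MDH3, the peroxisomal malate dehydrogenase, had one of 0.88 ± 0.18 in WT (adjusted p = 0.0271). Like POX1 and POT1, CAT2 was highest in sucrose library 2 and lowest in library 3.

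Of 10 other genes known to depend on Adr1, 5 were higher in sucrose in WT and 5 in 2SA, with medians of 1.92 and 2.16 on the log2 scale. They were led by JEN1 (lactate transport, 4.73 ± 0.71 in WT and 4.84 ± 0.72 in 2SA), ADY2 (acetate transport, 4.51 ± 0.83 and 4.67 ± 0.84), ADH2 (ethanol use, 3.93 ± 0.69 and 3.78 ± 0.69) and ACS1 (acetyl-CoA synthesis, 2.03 ± 0.38 and 2.29 ± 0.38), and ATO3 was at the other end with -0.10 and -0.26. ADH2 was highest in sucrose library 1 in both genotypes, at 308 CPM in WT and 284 CPM in 2SA, as SPS19 was. An unadjusted edgeR p under 0.05 was found for 1461 of the 6085 features in WT and 1101 in 2SA. Among 8 genes of fatty acid synthesis, the opposite pathway, none passed in edgeR, with medians of -0.27 in WT and -0.18 in 2SA, and 2 genes in each genotype had an unadjusted p under 0.05. DESeq2 counted 2 of them as lower in WT, where 3.27% of all features passed as lower, and 0 in 2SA. None of the list of 13 stress genes passed in edgeR, with medians of 0.67 and 0.26 and 3 genes in each genotype at an unadjusted p under 0.05, and DESeq2 counted 3 as higher in WT and 2 in 2SA. Without the libraries numbered 2 no member of these lists passed in either genotype. The stress median was then -0.42 in WT and -0.81 in 2SA, and that of fatty acid synthesis was -0.081 and 0.055. The median of the peroxisome formation list was then 0.080 and 0.0035, that of related metabolism 0.22 and 0.11 and that of the Adr1 list 1.85 and 1.83.

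Of 11 regulators, none passed in sucrose against glucose in edgeR, where 2 in WT and 0 in 2SA had an unadjusted p under 0.05. Of all 6085 features, 1461 in WT and 1101 in 2SA did. DESeq2 called 1 regulator as higher in WT and 0 in 2SA. ADR1 itself was at 53.4, 25.05 and 18.1 CPM in WT glucose and at 80.1, 382 and 79.4 CPM in WT sucrose. The log2 fold change of ADR1 was 2.49 ± 0.77 in WT and 1.45 ± 0.74 in 2SA (edgeR adjusted p = 0.0918 and 0.339). PIP2 had 0.70 ± 0.29 and 0.54 ± 0.29 and OAF1 had 0.18 ± 0.18 and 0.05 ± 0.18 on the same scale. Between the genotypes no regulator passed without the block. With the block in sucrose MIG1, a glucose repressor, and CAT8, an activator of gluconeogenic genes, were lower in 2SA. Their log2 fold changes were -0.63 ± 0.07 (edgeR adjusted p = 0.00441) and -0.61 ± 0.09 (adjusted p = 0.0147), and ADR1 had one of -0.50 ± 0.12 (adjusted p = 0.063). In that fit 112 of all 6085 features passed (1.84%), 98 of them lower in 2SA. Among the 13 stress genes 4 passed as lower, with a list median of -0.57.

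The features most like the 10 genes in their pattern were found by Pearson r, over the 12 libraries, with the mean of the 10 standardised log2 CPM values, among 5436 features with a mean of at least 5 CPM. The 6 highest were ATP7 (r = 0.982), SPG4 (0.977), FMP40 (0.977), NDE2 (0.977), COX4 (0.976) and MCO6 (0.976). SPG4 went from 12.2 ± 10.6 CPM (SD, n = 3) in WT glucose to 318 ± 270 CPM in WT sucrose, and NDE2 from 12.9 ± 5.07 to 92.5 ± 42.6 CPM. ATP7 moved less, from 47.0 ± 9.16 to 87.98 ± 27.1 CPM, so likeness of order over libraries came with responses of different size. These correlations carry no test, and the libraries share growth state and medium.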

How the data were processed

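The authors deposited raw read counts per feature, whole numbers with no normalization. Reads were aligned with Bowtie 0.12.2 to sacCer3, per the submitters' processing notes, after acid phenol extraction and KAPA library preparation, per the labels' protocols. The counting step, its use of strand and its treatment of reads with several matches were not given in the sources used here. Overlapping genes on opposite strands therefore cannot be told apart. BLAST+ 2.17.0 found no near copy of any of the 10 genes. No pair of replicates agreed within sampling noise.

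Counts were fitted in R 4.3.3 with edgeR 4.0.16 (quasi-likelihood, all 12 libraries, 1 mean per group, 8 residual degrees of freedom, with TMM factors from 0.922 to 1.11). Filtering with filterByExpr at its default of 10 counts left 6085 features to test and removed 1042. P-values were adjusted over all tested features by Benjamini-Hochberg, and the thresholds of 0.05 and 1.5-fold are those of the series' design text. Samples were grouped by title. Alternatives were DESeq2 1.42.0, its size factors in edgeR, no filter, no fold threshold, leaving out libraries, and blocks on the replicate number. The scripts were tested on simulated data.

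Whether equal numbers pair libraries was checked on deviations from the group means. For WT and 2SA libraries numbered 1, 2 and 3, Pearson r was 0.654, 0.610 and 0.545 among glucose cultures, and among sucrose cultures it was 0.603, 0.847 and 0.799. The numbers were therefore taken to pair WT with 2SA within a carbon source (block with 4 residual degrees of freedom). This pairing comes from the data, not the labels. Between glucose and sucrose the same-number r ran from 0.068 to 0.359 for number 1, from -0.273 to -0.092 for number 2 and from 0.274 to 0.479 for number 3. Libraries of different numbers reached 0.363 (2SA glucose library 2 with WT sucrose library 3). The pattern was mixed, and no pairing between the carbon sources was taken from it.

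Upstream sequence was read from the RefSeq R64 genome. Of the 7127 identifiers 6047 matched its annotation, and 99.09% of these had the same start and end. Protein sequences were not used here. The 10 genes, the lists and the motifs were chosen with earlier results of these data known. Named are the 10 genes, up to 4 genes per list that passed with the largest change, OAF1, PIP2, ADR1, RPD3, URA3 and the 6 most alike features. MIG1, CAT8, SPS18 and the strain and mating type genes, ATO3, INP2 and the genes of the closing section, were named after their values were seen.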

Additional observations from a re-analysis of the deposited data

How the results depend on the processing

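The number of calls changed with the libraries left out and with the choice of test, while the sucrose response kept its direction in nearly all settings. In sucrose against glucose, none of 170 alternative values in WT and 1 of 170 in 2SA changed sign. That exception is PXA2 in 2SA, with a log2 fold change of -0.015 without the libraries numbered 2 and 0.75 at most with libraries left out. The 170 values include fits that left out a library of the other genotype. Such a library is not part of the comparison, so leaving it out could hardly change a sign. In WT, features that passed numbered 209 in the main fit, 542 in DESeq2 and 636 with an additive replicate block, and 0 to 426 with libraries left out. For the 10 genes the WT counts were 3, 6 and 5, and 0 to 6. In 2SA, 115 features became 347 in DESeq2 and 347 with the block, and 0 to 157 with libraries left out, and the 10 genes gave 2, 7 and 4, and 0 to 3. The additive block gives libraries of the same number 1 shared effect in all 4 groups, so it treats glucose and sucrose libraries as paired. The labels do not give such a pairing, and the deviations between carbon sources were mixed in sign. Size factors of DESeq2 in edgeR, no filter on low counts and no fold threshold kept all of these counts within 1.5 times.

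In 2SA against WT no setting called any of the 10 genes, with the pairing as a block or without it, so the block changed no call among them. Features that passed in glucose were 5 in the main fit, 31 in DESeq2, 9 with the additive replicate block, 29 with the block within carbon source, 10 with that block without the libraries numbered 2, and 1 to 6 with libraries left out. In sucrose they were 4, 46, 10, 112, 15 and 0 to 4. The log2 fold changes between genotypes changed sign with the settings, each time uncalled, in 6 of 190 alternative values in glucose, 36 of 190 in sucrose and 33 of 190 in the interaction. In sucrose FAA2 was -0.0013 with DESeq2 size factors, -0.0014 in DESeq2, -2.7e-05 with the additive block, -0.017 with the block within carbon source and -0.052 with that block without the libraries numbered 2. In the last fit POT1 was -0.19, PXA2 0.025 and DCI1 0.0032 in sucrose. In the interaction POT1 was -0.091, -0.25 and -0.30 and SPS19 was 0.13 and 0.032 in those block fits. For the comparisons within glucose or within sucrose, the 190 values include fits that left out a library of the other carbon source. Such a library is not part of the comparison, so leaving it out could hardly change a sign. The cause of the sign changes was not tested.

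With libraries left out, the log2 fold change in glucose ran from -0.035 to 0.55 for POX1, -0.11 to 0.15 for FOX2, -0.24 to 0.57 for FAA2 and -0.31 to 0.00023 for PXA1. In sucrose it ran from -1.06 to 0.35 for POX1, -0.38 to 0.94 for FOX2, -0.92 to 1.16 for POT1, -0.46 to 0.41 for FAA2, -0.77 to 0.27 for PXA1, -0.42 to 0.44 for PXA2, -0.35 to 0.31 for ECI1, -0.47 to 0.48 for DCI1, -0.89 to 0.40 for SPS19 and -0.22 to 0.59 for CTA1. In the interaction it ran from -1.37 to 0.035 for POX1, -0.39 to 0.94 for FOX2, -1.17 to 0.91 for POT1, -0.68 to 0.24 for FAA2, -0.59 to 0.45 for PXA1, -0.65 to 0.21 for PXA2, -0.51 to 0.14 for ECI1, -0.65 to 0.30 for DCI1, -0.47 to 0.83 for SPS19 and -0.50 to 0.30 for CTA1. The window of 600 bases, in place of 250 before and 50 after the start, was added after the data were seen and moved the genes with an oleate element from 6 to 9. Each of the 10 genes had 35 counts or more in every library, and what limited the number of calls was not tested.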

Other observations

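Outside the 10 genes, the oleate response element stood within 600 bases upstream of 147 other genes, of which 143 were tested. This set was chosen after values had been seen and carries no test. In WT, 8 of the 143 were higher in sucrose and 1 was lower (5.59% higher, against 2.94% of the 5743 tested genes with an upstream region), with a median log2 fold change of 0.16. In 2SA, 2 were higher and 3 were lower (1.40% against 1.64%), with a median of 0.07. The 8 in WT were MDH3, IDP3, CRC1, COA1, SDH5, MRPS5, MRPL40 and YLR012C. CRC1 encodes the mitochondrial carnitine carrier, a step after the peroxisome in the path of acetyl units. CRC1 and COA1 were the 2 that were higher in 2SA. With an Adr1 core in the same window as well, 5 of 52 genes were higher in WT and none in 2SA. No hypothesis was drawn from these counts.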
